A study of Trametes pubescens and Hermanssonia centrifuga with 16 samples.

Results

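Phlebia centrifuga is a white-rot fungus. By the rule below, 37 of its 13785 gene models had a peak in a single cool growth condition and nearly even expression in the others. In 29 of them the peak lay on wheat straw at 15 °C, and in 8 it lay on spruce at 15 °C. A gene model belonged to a peak when 3 conditions on its CPM (counts per 1000000 counts of the library, scaled between libraries by TMM, edgeR's trimmed-mean method) were met. The lower of the 2 libraries of the peak group had at least 10 CPM. It was also at least 1.5 times the highest of the other 6 libraries. The mean CPM of the other 3 groups differed by less than 1.3-fold, highest over lowest. The series as a whole holds 28236 gene models, 14451 of them from a second fungus, Trametes pubescens, whose libraries were not used here.

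The P. centrifuga cultures were all of strain FBCC195, which GEO lists as Hermanssonia centrifuga. The 4 groups were mycelium grown for 21 days on straw at 15 °C, on spruce at 15 °C, on straw at 25 °C and on spruce at 25 °C, with 2 libraries each. Cultures had 2 g of dry substrate, cut wheat straw or sticks of Norway spruce, at a moisture content of 60% on water agar, and were inoculated with homogenized mycelium from a liquid culture. The sample titles and treatment labels give 15 or 25 °C, whereas the protocol text names 25 °C alone for the solid cultures and 15 °C for the liquid preculture of this species. Groups follow the titles. Nothing in the labels says that a group's 2 libraries are 2 cultures, so p-values measure the spread between these libraries, which may be technical.

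White-rot fungi are basidiomycetes that degrade lignin as well as cellulose and hemicelluloses, with secreted peroxidases, oxidases and carbohydrate-active enzymes whose genes respond to the substrate. Straw is a grass material and spruce a softwood, and they differ in hemicelluloses, in lignin and in extractives such as resin acids. Temperature acts on membranes, on protein folding and on growth rate in fungi, so that genes of cool cultures can differ from those of warm ones on the same substrate. A gene that stands out in a single cool group combines both factors: it is high at the low temperature on one substrate and not on the other. The files give each gene model a JGI number, a scaffold and a model number and pair none of them with a gene name. No function is therefore given for any gene model, no marker genes of the species or the mycelium were read, and no sequence is shown.

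The 8 libraries held 9691925 to 12420388 counts, and all 37 members also had enough counts in the 6 libraries outside their peak to pass the filter on low values. The lowest count of any member in any library was 27. The values are counts per gene model, not adjusted for length, so a level can be compared between libraries but not between gene models. The RNA came from bulk mycelium, where fewer expressing hyphae and less RNA per hypha cannot be told apart. The 2 spruce libraries at 15 °C differed more from each other than the libraries of any other group did, with a chi-square per degree of freedom of 71.2 against 15.6 for straw at 15 °C, 20.6 for straw at 25 °C and 22.3 for spruce at 25 °C.

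The 29 genes of the straw peak had about 2.11 times the summed expression on straw at 15 °C that they had in the mean of the other 6 libraries. Their summed CPM was 5794 and 5480 in the straw libraries at 15 °C, against 2724 and 2752 on straw at 25 °C, 2671 and 2908 on spruce at 15 °C and 2458 and 2532 on spruce at 25 °C. Both cool straw libraries lay above the other 6, and the lower of them was 1.88 times the highest of the others. These sums, and the fold changes given next, follow from how the genes were chosen. The median log2 fold change of the 29 genes between cool straw and the mean of the other 3 groups was 1.26, with a range of 0.87 to 2.32, while the median of all 11658 tested genes was -0.02.

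**Figure D1:**
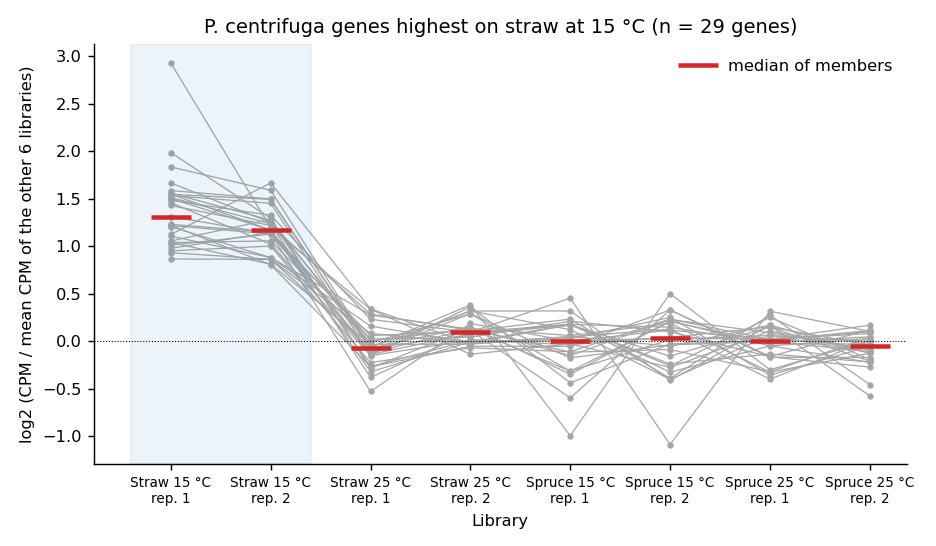
CPM of the 29 straw-peak genes in each of the 8 libraries, as log2 of the ratio to the mean of the 6 libraries outside the peak. Each grey line is a gene and each red bar the median of the genes. Genes were chosen for the 2 shaded libraries being highest, and the line far above the rest in replicate 1 of straw at 15 °C is a gene with 69.0 CPM there and 20.8 CPM in replicate 2.

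The 2 genes with the widest margin over the other libraries were neighbours on scaffold 2861. The gene jgi|Phlcen1|9665|scaffold_2861.7 had 887 and 855 CPM on straw at 15 °C, against 289 and 317 on straw at 25 °C, 342 and 272 on spruce at 15 °C and 337 and 263 on spruce at 25 °C. The gene jgi|Phlcen1|9666|scaffold_2861.8 had 336 and 317 CPM on straw at 15 °C, against 105 and 123 on straw at 25 °C, 131 and 96.9 on spruce at 15 °C and 138 and 102 on spruce at 25 °C. Both were high in the 2 cool straw libraries alone, with no overlap with the other 6, as the rule required of every member.

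The rule kept the other 3 groups of every member close to each other, so the changes with temperature and with substrate had to be alike. For 9665 the log2 fold change was 1.52 ± 0.18 (SE) over straw at 25 °C and 1.502 ± 0.18 over spruce at 15 °C. For 9666 both log2 fold changes were 1.52 ± 0.20. Its means in the other 3 groups were 114 ± 12 CPM on straw at 25 °C, 114 ± 24 on spruce at 15 °C and 120 ± 26 on spruce at 25 °C (SD, n = 2 each). The CPM of 9665 divided by that of 9666 was 2.64 and 2.69 on straw at 15 °C and lay between 2.44 and 2.81 in the other 6 libraries. An even ratio across groups follows largely from the rule, which chose both genes for the same peak. Within each group the 2 replicates differed in the same direction in both genes, a comparison the rule did not use. How often other pairs of members did so was not counted. The models on either side of the pair stayed low or flat, with 2.80 and 2.18 CPM for the one before it and 41.0 and 46.6 CPM for the one after it on straw at 15 °C, against 1.36 to 3.73 and 30.9 to 49.2 CPM in the other 6 libraries.

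The gene with the largest fold change had the least even replicates. The gene jgi|Phlcen1|7223|scaffold_2524.92 had 69.0 and 20.8 CPM on straw at 15 °C, against 11.5 and 8.25 on straw at 25 °C, 8.90 and 7.49 on spruce at 15 °C and 9.77 and 8.52 on spruce at 25 °C. The rule kept both cool straw libraries above all others, yet the first of them had 3.33 times the CPM of the second. Its log2 fold change over the mean of the other 3 groups was 2.32 ± 0.37 (SE), and it was 1.1997 without replicate 1 and 2.93 without replicate 2 of straw at 15 °C.

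The 2 remaining named genes were named for their fold change over a single group, but each rose over the other group too. The gene jgi|Phlcen1|2421|scaffold_1501.25 had 45.4 and 28.1 CPM on straw at 15 °C, against 9.52 and 11.1 on straw at 25 °C, 11.1 and 14.4 on spruce at 15 °C and 10.3 and 12.5 on spruce at 25 °C. After 7223 it had the largest rise over the same substrate at 25 °C, 1.84 ± 0.26 (SE) in log2. Its rise over spruce at 15 °C was 1.53 ± 0.26. The gene jgi|Phlcen1|9585|scaffold_2838.4 had 53.5 and 45.1 CPM on straw at 15 °C, against 14.4 and 19.6 on straw at 25 °C, 7.53 and 21.2 on spruce at 15 °C and 12.2 and 15.1 on spruce at 25 °C. Its log2 fold change over spruce at 15 °C was 1.79 ± 0.41, and the 2 libraries of that spruce group held both the lowest and the highest of the 6 values outside the peak. Its log2 fold change over straw at 25 °C was 1.53 ± 0.40.

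The depth of counting differed widely among the 29 genes. Mean CPM on straw at 15 °C was under 50 in 19 of the 29 genes, between 50 and 500 in 7 and at least 500 in 3, with a median of 41.9. The rule set a floor of 10 CPM, so these levels describe the members alone. The gene with most counts had 2341 and 2334 CPM on straw at 15 °C, against 1360.3 and 1263 on straw at 25 °C, 1310.0 and 1528 on spruce at 15 °C and 1003 and 1239 on spruce at 25 °C. It alone made up 41.5% of the summed CPM of the 29 genes on cool straw, and its log2 fold change of 0.87 was the smallest of all 29. The remaining gene over 500 CPM had 597 and 509.5 CPM on cool straw, against 266 to 327 CPM in the other 6 libraries.

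The edgeR fit over all tested genes, at an adjusted p below 0.05, called every one of the 29 genes higher on cool straw than in the mean of the other groups, where 7.06% of all tested genes were called higher. Against straw at 25 °C 27 of the 29 were called higher (background 5.21%), and against spruce at 15 °C 28 were (background 6.11%). Since the genes were selected on these libraries, nothing is read from these counts. With either library of straw at 15 °C left out, fewer of the 29 and fewer of all tested genes were called higher in each of these contrasts. Median log2 fold changes were 1.24 over straw at 25 °C and 1.25 over spruce at 15 °C. With either library of straw at 25 °C left out, both numbers fell in the contrast against that group as well.

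The interaction test, of the temperature effect on straw against that on spruce, called 0 of the 29 genes with edgeR, where 0.0858% of all genes were called. The rule used these libraries, and a peak in a single group with the others close to each other itself makes an interaction, so nothing is read from the counts of this test. An unadjusted p below 0.05 was found in 27 of the 29 genes and in 18.1% of all tested genes, and DESeq2 called 15 of the 29 and 3.55% of all genes. The edgeR count of 0 was 4 without replicate 1 and 2 without replicate 2 of spruce at 15 °C, where 79 and 39 of all tested genes were called with a positive interaction and 113 and 43 with a negative one. The interaction on the log2 scale, the temperature effect (15 over 25 °C) on straw minus that on spruce, ran from 0.49 to 2.35 over the 29 genes, with a median of 1.14. Between spruce and straw at 25 °C edgeR called 0 of the 29 genes, 0 had an unadjusted p below 0.05, and DESeq2 called 0. The rule itself required these groups to be alike, whereas edgeR called 18.7% of all tested genes there and 34.7% had an unadjusted p below 0.05.

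Within the cool straw group, most of the genes were higher in replicate 1, a comparison the rule did not use. Replicate 1 exceeded replicate 2 in 23 of the 29 genes (79.3%), against 47.9% of the 8397 genes with at least 10 CPM in both libraries. The median ratio of the higher to the lower of the 2 libraries was 1.17 for the 29 genes and 1.08 for those 8397 genes. In the other groups replicate 1 was the higher in 7 of 29 on straw at 25 °C (all genes with at least 10 CPM in both libraries, 49.2%), in 12 of 29 on spruce at 15 °C (50.8%) and in 17 of 29 on spruce at 25 °C (51.8%). Genes are not independent replicates, and no p is given for these counts.

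The condition that the other groups be alike removed most genes with a cool straw peak. At least 10 CPM in both cool straw libraries and the 1.5-fold margin were met by 136 gene models, of which 29 (21.3%) were members; the margin alone was met by 1.35% of the tested genes. Among the 107 others the next highest group was straw at 25 °C in 76, spruce at 15 °C in 27 and spruce at 25 °C in 4, and spruce at 25 °C was the lowest group in 78. The widest margin among these was 17.0-fold, while no member exceeded 2.50-fold. At the edge of the margin, the last members had ratios of 1.52 and 1.53 and the first genes outside 1.46 and 1.45. At the edge of the evenness condition, the last members had other groups within 1.295-fold and 1.294-fold and the first genes outside within 1.308-fold and 1.313-fold. At the edge of the level condition, the members with the lowest cool straw library had 10.4 and 11.4 CPM and the first genes outside 8.47 and 7.86 CPM.

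**Figure D2:**
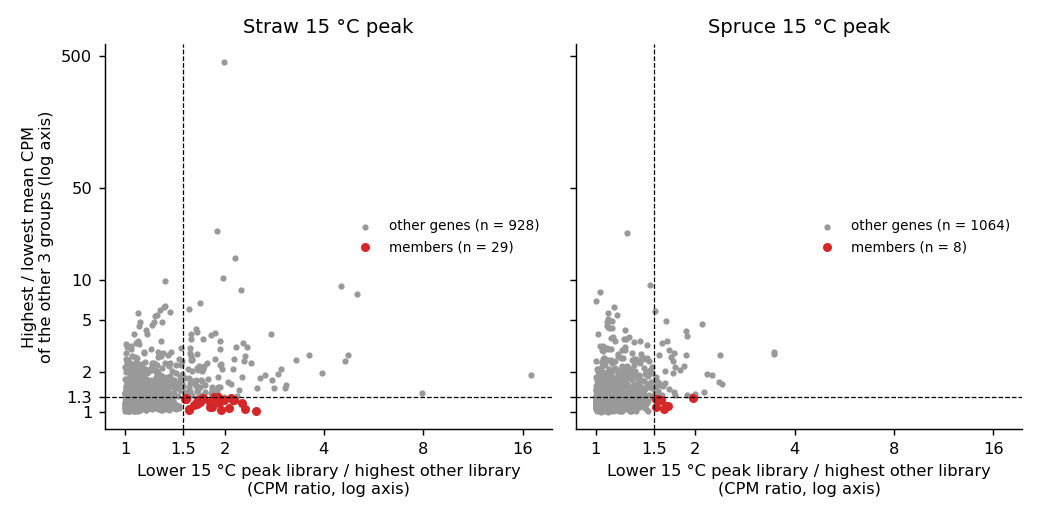
Gene models with at least 10 CPM in both libraries of the peak group and both above the other 6 libraries; the horizontal axis gives the lower peak library over the highest other library and the vertical axis the highest over the lowest mean CPM of the other 3 groups, both on log axes. Dashed lines mark the thresholds of 1.5 and 1.3; the 29 and 8 members lie right of one and below the other, and most genes with a wide margin, up to 17.0, lie above the lower line.

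The 29 genes lay on 27 scaffolds. Of 48 tested models next to them, 13 were called higher on cool straw than in the mean of the other groups. Their neighbours were taken as the models numbered 1 below and 1 above on the same scaffold, which assumes that model numbers follow the order along it; the files do not state this. The neighbours had no part in the choice of members. Of 48 tested neighbours that were not members themselves, 13 were called higher on cool straw than in the mean of the other groups (27.1%) and 2 lower (4.17%), where 7.06% of all tested genes were called higher and 6.48% lower. Their median log2 fold change was 0.09, against -0.02 for all tested genes, with single neighbours ranging from -2.12 to 1.785. A call against the mean of the other groups needs no peak on cool straw. The 13 called higher lay beside 11 of the members, and 11 of the 13 had both cool straw libraries above the other 6. This share was not counted over all genes called higher, so nothing is read from it. In model 40 of scaffold 638, among these 11, the margin was only 1.00. A neighbour whose libraries did overlap had 2594 and 1648 CPM on cool straw and 1871 and 2954 on spruce at 15 °C. Without replicate 1 of straw at 15 °C the count of 13 was 3 (6.25%, where 1.66% of all genes were called higher), and without replicate 2 it was 6 (12.5%, background 2.64%).

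At larger distances the share called higher was 6 of 41 tested models at a distance of 2 (14.6%), 3 of 39 at 3 (7.69%), 1 of 36 at 4 (2.78%) and 1 of 30 at 5 (3.33%). The same count was made around the genes called higher on cool straw that were not members: of 1315 tested models next to them, 252 were called higher (19.2%), and of 1235 at a distance of 2, 151 were (12.2%). The strand setting of the counting is not given in the sources used here, and reads of models that overlap or share sequence could not be told apart; their part in these shares was not tested.

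**Figure D3:**
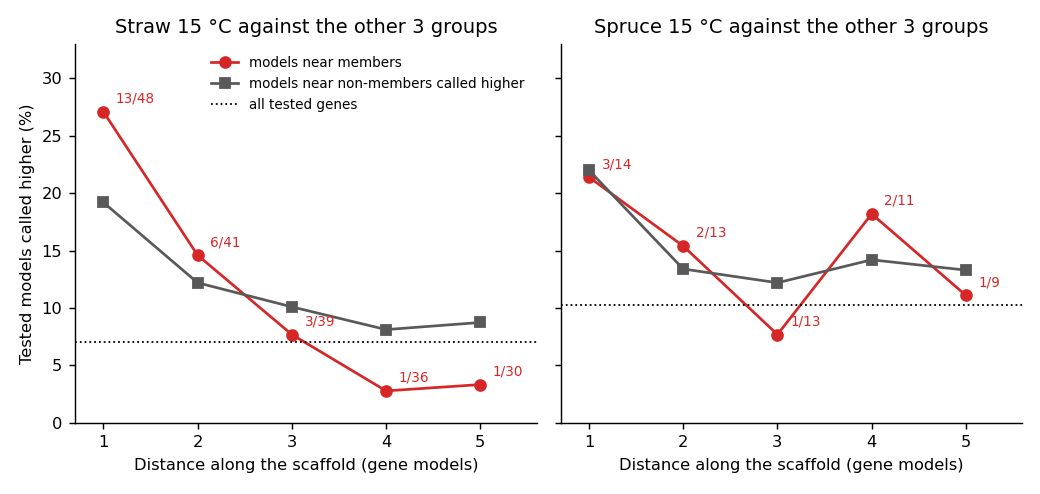
Share of tested gene models called higher in the peak group (edgeR, adjusted p below 0.05), in percent, by distance in gene models from a member (red, with counts) or from a non-member that was itself called higher (grey). The dotted line is the share among all tested genes, 7.06% for straw and 10.3% for spruce; next to straw members 13 of 48 models were called, next to spruce members 3 of 14.

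The neighbours named here were chosen after their values were seen. On scaffold 967 the neighbour jgi|Phlcen1|13558|scaffold_967.11 had 189 and 274 CPM on straw at 15 °C, against 175 and 118 on straw at 25 °C, 56.1 and 37.5 on spruce at 15 °C and 49.5 and 38.8 on spruce at 25 °C. It was high on straw at either temperature, unlike the member beside it, which had 28.9 and 42.1 CPM on cool straw, against 11.2 to 16.8 CPM elsewhere. Over the mean of the other groups it was higher by 1.785 ± 0.21 in log2 (SE), with an edgeR adjusted p of 0.00252. On scaffold 2838 the neighbour jgi|Phlcen1|9584|scaffold_2838.3 was lower on cool straw, with 17.7 and 17.5 CPM there, against 57.4 and 62.2 on straw at 25 °C, 16.1 and 23.2 on spruce at 15 °C and 39.1 and 39.2 on spruce at 25 °C. It was low in both cool groups and high in both warm ones, and its log2 fold change was -1.02 ± 0.15 (edgeR adjusted p = 0.00503).

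Scaffold 638 carried 2 members with a model between them that was also highest on cool straw. The members, models 41 and 43, had 18.3 and 15.7 CPM and 46.1 and 34.6 CPM on straw at 15 °C, against 6.46 to 9.52 CPM and 11.6 to 16.6 CPM in the other 6 libraries. Model 42 between them had 442 and 326 CPM on cool straw, against 150 and 179 on straw at 25 °C, 114 and 165 on spruce at 15 °C and 108 and 126 on spruce at 25 °C. It met the margin, at 1.82, and missed membership because the other groups differed by 1.41-fold. It was higher by 1.46 ± 0.17 in log2 (SE), with an edgeR adjusted p of 0.00236. Models 39 and 40 were called higher too, by 0.40 ± 0.11 (edgeR adjusted p = 0.0455) and 0.67 ± 0.13 (adjusted p = 0.0167) in log2. Their margins over the other libraries were only 1.11 and 1.00. Model 39 had 379 and 378 CPM on cool straw and 337 and 340 on spruce at 15 °C. Model 40 had 75.6 and 73.2 CPM on cool straw and 63.4 and 73.2 on straw at 25 °C. Model 44 was not called, at 0.15 ± 0.12 (adjusted p = 0.471).

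Scaffold 1607 held a member of each peak, 4 models apart. Model 12, of the straw peak, had 244 and 211 CPM on straw at 15 °C, against 110.4 and 98.0 on straw at 25 °C, 60.0 and 114 on spruce at 15 °C and 80.6 and 80.5 on spruce at 25 °C. Its neighbours on both sides were called higher on cool straw: model 13 had 369 and 334 CPM there, against 113 to 180 CPM elsewhere, and model 11 had 69.9 and 60.9 CPM, against 12.5 to 66.1 CPM elsewhere, so that a cool spruce library overlapped cool straw. Model 8, of the spruce peak, had 31.6 and 36.3 CPM on spruce at 15 °C, against 20.1 and 18.9 on spruce at 25 °C, 14.8 and 16.7 on straw at 15 °C and 17.2 and 16.5 on straw at 25 °C. The model after it had 151 and 294 CPM on cool spruce, against 134 and 92.5 on warm spruce and 22.5 to 55.4 CPM on straw.

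On scaffold 2838 members of the opposite peaks were direct neighbours. The straw-peak gene 9585, given above, is model 4. Model 5 had 10.5 and 10.1 CPM on spruce at 15 °C, against 6.63 and 6.01 on spruce at 25 °C, 5.94 and 4.47 on straw at 15 °C and 4.76 and 5.21 on straw at 25 °C. Both genes of this adjacent pair were chosen for a peak at 15 °C, on different substrates.

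**Figure D4:**
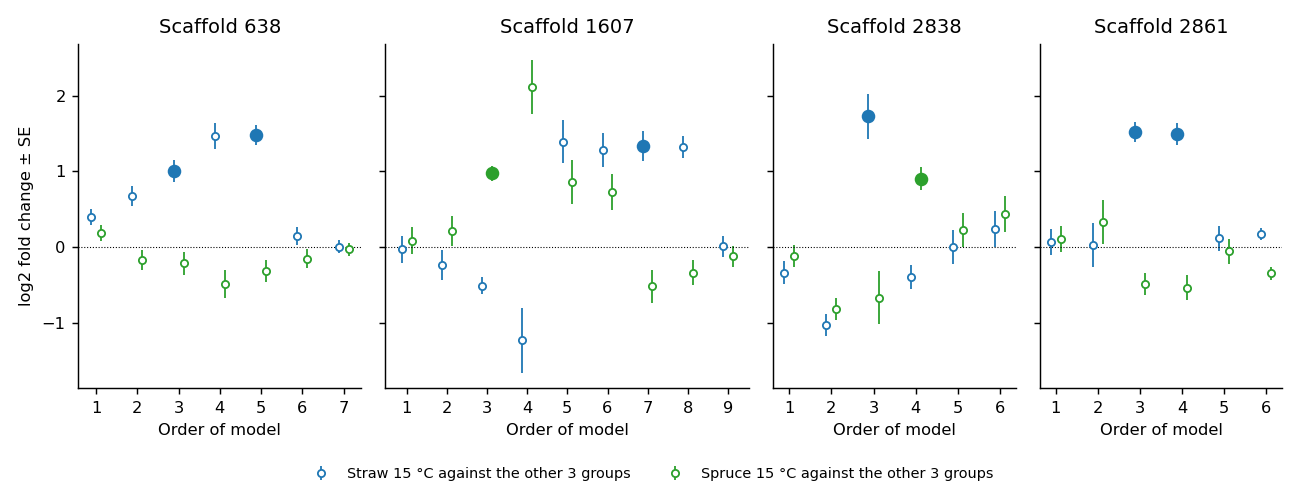
Log2 fold change ± SE of consecutive gene models on the 4 scaffolds with at least 2 members, for straw at 15 °C (blue) and spruce at 15 °C (green), each against the mean of the other 3 groups; filled points are members of that peak. On scaffold 638 the straw values are 0.67, 1.00, 1.46 and 1.48 for models 40 to 43. They are 0.15 and 0.01 for models 44 and 45. Model 40 was nearly as high on straw at 25 °C. On scaffold 2861 the 2 members stand alone at 1.52 and 1.49.

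The 8 genes of the spruce peak had 1.98 times the summed expression on cool spruce that they had in the mean of the other 6 libraries. Their summed CPM was 2760 and 2717 on spruce at 15 °C, against 1535 and 1226 on spruce at 25 °C, 1282 and 1448.5 on straw at 15 °C and 1398 and 1402 on straw at 25 °C. Both cool spruce libraries lay above the other 6, the lower of them by 1.77 times. These sums, and the fold changes given next, follow from how the genes were chosen. The median log2 fold change over the mean of the other 3 groups was 0.97, with a range of 0.79 to 1.52, while the median of all tested genes was -0.0024. No gene of this peak reached a margin of 2-fold, which 7 of the 29 straw-peak genes did.

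The gene jgi|Phlcen1|8970|scaffold_2758.10 had the widest margin, 1.97, and the largest difference from straw at the same temperature. It had 164 and 209.6 CPM on spruce at 15 °C, against 83.4 and 68.5 on spruce at 25 °C, 42.1 and 77.2 on straw at 15 °C and 71.0 and 50.6 on straw at 25 °C. The log2 fold change was 1.65 ± 0.30 (SE) over straw at 15 °C and 1.298 ± 0.30 over spruce at 25 °C. The cool straw libraries lay far apart, and one of them was the lowest of the 8. Both cool spruce libraries stood above all others, as the rule required.

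The gene jgi|Phlcen1|8589|scaffold_2709.9 had 1026 and 876 CPM on spruce at 15 °C, against 529.9 and 405 on spruce at 25 °C, 389 and 452 on straw at 15 °C and 455 and 453 on straw at 25 °C. The gene jgi|Phlcen1|5199|scaffold_2127.1 had 248 and 410.5 CPM on spruce at 15 °C, against 151 and 115 on spruce at 25 °C, 152 and 144 on straw at 15 °C and 145 and 149 on straw at 25 °C. Both had cool spruce libraries clear of the other 6, which the rule required. In 5199 the second cool spruce library had the higher value, and the log2 fold change of 1.21 ± 0.18 (SE) over the mean of the other groups was 0.81 without that library and 1.54 without the first.

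The other 5 genes of the spruce peak had cool spruce replicates within 1.15-fold of each other. The one of these with most counts had 995 and 894 CPM on spruce at 15 °C, against 571 and 472 on spruce at 25 °C, 525 and 587 on straw at 15 °C and 549 and 586 on straw at 25 °C. Another had 265 and 262 CPM on cool spruce, against 163 and 132 on warm spruce and 132 to 155 CPM on straw. One at a low level had 20.0 and 19.0 CPM on cool spruce, against 8.64 to 12.3 CPM in the other 6 libraries. The remaining ones are the members on scaffolds 1607 and 2838 given above. Over the 8 genes replicate 1 was the higher cool spruce library in 5, against 50.8% of the 8142 genes with at least 10 CPM in both.

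**Figure D5:**
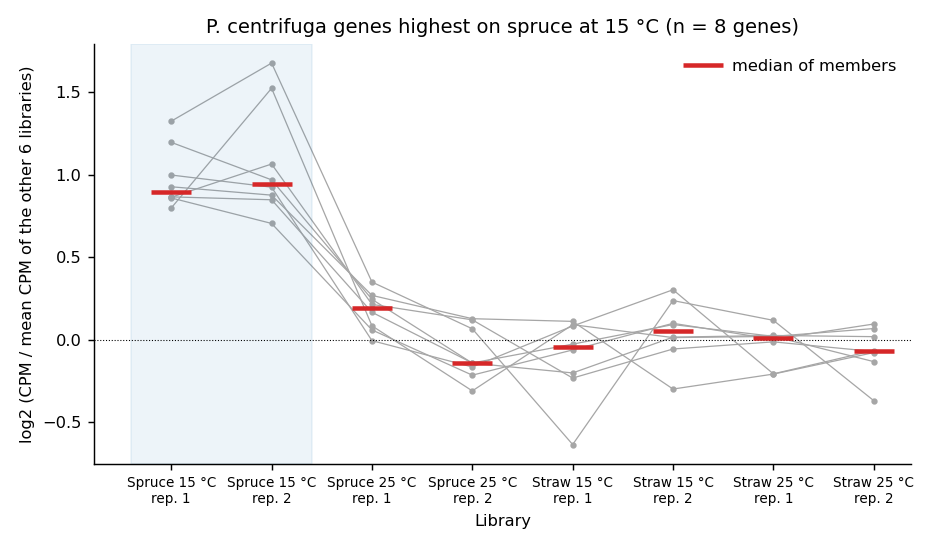
CPM of the 8 spruce-peak genes in each library, as log2 of the ratio to the mean of the 6 libraries outside the peak, with the medians in red. The shaded cool spruce libraries are those the genes were chosen on; of the others, replicate 1 of spruce at 25 °C has the highest median and was the highest other library in 5 of the 8 genes.

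In the edgeR fit all 8 genes were called higher on cool spruce than in the mean of the other groups (background 10.3%), 7 against spruce at 25 °C (background 3.87%) and 8 against straw at 15 °C (background 6.54%). These counts follow the selection. With either library of spruce at 25 °C left out, fewer of the 8 and fewer of all tested genes were called higher against that group. The same held against straw at 15 °C with either library of that group left out. The interaction, on the log2 scale and defined as above, lay between -1.33 and -0.64 with a median of -0.89. With edgeR 0 of the 8 passed the threshold (background 0.0858%), 8 had an unadjusted p below 0.05 (18.1% of all genes), and DESeq2 called 4 (3.55% of all genes). Without replicate 1 of spruce at 15 °C edgeR called more of the 8 and more of all tested genes. These counts too follow the selection. Replicate 1 of spruce at 25 °C was above replicate 2 in 8 of the 8 genes, and in 51.8% of the 8462 genes with at least 10 CPM in both.

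How many genes formed the spruce peak depended on the scaling. TMM factors were 0.947 and 0.909 for spruce at 15 °C, against 1.02 and 1.06 for spruce at 25 °C, 0.995 and 0.959 for straw at 15 °C and 1.03 and 1.09 for straw at 25 °C, which raises values on cool spruce relative to the others. With library totals alone 1 gene model met the rule and it was none of the 8, whose margins were then 1.27 to 1.83. Under that scaling the log2 fold changes of all tested genes shifted by -0.14 at the median. Without replicate 1 or 2 of spruce at 15 °C the rule gave 60 and 53 genes, and without replicate 1 of spruce at 25 °C it gave 29. With a library left out there is 1 value fewer to meet the margin. With a cool spruce library left out the lower of 2 becomes a single value. The margin is therefore looser by construction, and the 8 genes had to pass it apart from rescaling. The evenness condition is not, since a group outside the peak that loses a library has its mean from 1 library. Without replicate 2 of spruce at 25 °C 7 genes met the rule, 6 of them among the 8. For the straw peak, library totals alone gave 21 genes, 16 of them among the 29, with margins of 1.396 to 2.37 for the 29.

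Next to spruce-peak genes 3 of 14 tested models that were not members were called higher on cool spruce (21.4%) and 1 lower (7.14%), where 10.3% and 9.08% of all tested genes were. Next to non-members called higher the share was 447 of 2030 (22.0%). The neighbour jgi|Phlcen1|11444|scaffold_506.5, chosen after its values were seen, had 481 and 555 CPM on spruce at 15 °C, against 254 and 184 on spruce at 25 °C, 36.3 and 80.4 on straw at 15 °C and 81.2 and 48.8 on straw at 25 °C. It was high on spruce at both temperatures and highest in the cold, by 2.46 ± 0.28 in log2 (SE) over the mean of the other groups (edgeR adjusted p = 0.00250), while the member beside it, which had 995 and 894 CPM on cool spruce, lay between 472 and 587 CPM in all 6 other libraries. The neighbour on scaffold 381 that was called lower had 21.6 and 15.3 CPM on cool spruce, against 24.1 and 15.1 on warm spruce, 31.6 and 46.1 on cool straw and 116 and 82.2 on warm straw. Its cool and warm spruce libraries overlapped.

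Of the genes with at least 10 CPM in both cool spruce libraries and the 1.5-fold margin, 8 of 54 (14.8%) were members, and the margin alone was met by 0.532% of the tested genes. Among the 46 others the next highest group was spruce at 25 °C in 38, straw at 15 °C in 7 and straw at 25 °C in 1. The last members had margins of 1.52 for both, and the first genes outside had 1.49 and 1.44. For the evenness of the other groups these values were 1.27-fold for both inside and 1.301-fold and 1.33-fold outside, and for the level 10.1 and 19.0 CPM inside and 0.908 CPM outside, where 1 gene model failed on level alone. The same rule applied to the warm groups found 11 genes with a peak on straw at 25 °C and 8 on spruce at 25 °C. The mirror image, with both cool libraries at most the lowest other library divided by 1.5, at least 10 CPM in the lowest other library and the other groups within 1.3-fold, held for 2 genes on straw at 15 °C and 10 on spruce at 15 °C.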

How the data were processed

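The deposited values are raw counts, whole numbers of reads for each gene model in each library, and were used unchanged. The tools Trimmomatic 0.36 and STAR 2.7.10a are named in the submitters' processing notes. Genome build, annotation version and strand setting: not given in the sources used here. The filter filterByExpr of edgeR kept 11658 of 13785 gene models, and libraries were scaled by TMM. CPM were computed for all gene models with these scaled totals, so they say nothing of total RNA. All tests came from 1 fit of the 8 P. centrifuga libraries with edgeR 4.0.16 (R 4.3.3), 1 mean per group, 4 residual degrees of freedom, glmQLFit and glmQLFTest, with Benjamini-Hochberg adjustment over all tested genes and calls at an adjusted p below 0.05. The mean of other groups is the mean of their log2 levels; the SE is the log2 fold change divided by the square root of F. The fit was tested on simulated data. Alternatives were DESeq2 1.42.0, RLE scaling, library totals, no filter, a replicate block, each library left out, and other thresholds of the rule.

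The members and lists were chosen with earlier results of these data known, so the members' own values are a description. Named members are, per peak, at most 2 by each of 3 rankings: the margin, the fold change over the same substrate at 25 °C, and that over the other substrate at 15 °C. Others are given by value.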

Additional observations from a re-analysis of the deposited data

How the results depend on the processing

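With RLE scaling 26 genes met the rule for the straw peak and 10 for the spruce peak, and with library totals 21 and 1. The thresholds set the numbers: 7 and 0 genes with a margin of 2, 88 and 97 with 1.2, 14 and 4 with the other groups within 1.2-fold, 49 and 19 within 1.5-fold, and 136 and 54 with no such limit. Leaving out single libraries, the straw peak held 24 to 42 genes, with 16 to 29 of the 29 members among them. The spruce peak held 7 to 60 genes, with 6 to 8 of its 8 members among them. The genes called on cool straw against the mean of the other groups, 1579 in all, numbered 269 to 2337 with a library left out, the lowest without replicate 1 of straw at 15 °C, and those on cool spruce, 2258 in all, 1312 to 2510. With library totals 737 were higher and 1718 lower on cool spruce, against 1199 and 1059 with TMM. Calls among the neighbours higher on cool straw ranged from 3 to 15 and on cool spruce from 2 to 3, and neighbours up to 2 models away gave 5 of 27 on cool spruce. With a library left out, the number of members called higher against single groups varied widely for both peaks, and so did that of all tested genes.

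Replicate numbers are shared between the groups, but the labels tie them to no common culture, and differences between replicates 1 and 2 correlated between groups by -0.37 to 0.29 over genes. With the replicate number as a block, 1376 genes were called on cool straw and 2026 on cool spruce, and 10 neighbours were called higher on cool straw. Of the 8 named genes, all kept their direction in 13 settings each, which the choice of genes largely fixes. Their calls follow the selection too, so nothing is read from the calls that were kept. The gene 9585 alone lost its call, without either replicate of straw at 15 °C. Its log2 fold change over the mean of the other groups was 1.60 without replicate 1 and 1.84 without replicate 2. Leaving out a library leaves its group with 1, which is assumed to vary like the other groups.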
